A study of Mus musculus with 2 samples.

Results

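Mir139, Mir149, Mir191, Mir425 and Mir744 are 5 mouse microRNA (miRNA) genes that lie inside longer host transcripts, and they are described here in gastrocnemius, the large calf muscle. They were chosen by name from the 2202 miRNA genes of the deposited count files. Of these, Mir139, Mir149, Mir191 and Mir744 were selected on their high counts in these same libraries, and Mir425 was added as the genomic neighbour of Mir191, so the levels below are a description with no test. The muscle came from female B6CASTF1/J mice, F1 hybrids of the strains C57BL/6J and CAST/EiJ, at 18 to 20 months of age, with no treatment named in the labels. There are 2 libraries in 1 group, numbered biological replicates 1 and 2 in the labels, with separate tissue sample entries but the same donor entry. Whether they came from separate animals is not stated, so differences between them may be technical.

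A miRNA is cut from a hairpin in a longer RNA, first in the nucleus and then in the cytoplasm, to a mature strand of either arm (5p or 3p) that guides Argonaute proteins to messenger RNAs. Pairing rests mainly on the seed, bases 2 to 8 of the mature strand. When a hairpin sits in an intron, miRNA and host messenger RNA can come from the same primary transcript, and hairpins of a single transcript are transcribed together, although processing and turnover can set their mature levels apart.

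The hosts have unrelated functions. Mir139 lies in Pde2a, which encodes a phosphodiesterase that breaks down cAMP and cGMP. Mir149 lies in Gpc1, which encodes glypican-1, a heparan sulfate proteoglycan of the cell surface. Mir744 lies in Map2k4, which encodes a kinase that activates JNK and p38. Mir191 and Mir425 lie near the start of Dalrd3, whose product takes part in tRNA methylation in human cells. Of the miRNAs, miR-149 is known in mouse skeletal muscle as a repressor of Parp2 upstream of SIRT1 and PGC-1α, miR-139-5p is known in human tumours as a miRNA that is often lost, and miR-191-5p and miR-425-5p are widely used as reference miRNAs in human samples. The strand miR-744-5p is known to act on TGFB1 in human cells, and miR-425-5p on the natriuretic peptide gene NPPA.

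The hairpins show what was counted, since each count covers a whole miRNA gene and does not separate its arms. All sequences are RefSeq entries of build GRCm38.p6, whose positions matched GENCODE M21 for all 5 genes, and run 5′ to 3′ with the 5p and 3p mature strands in capitals. The positions are chr7:101475376-101475443 (plus strand) for Mir139, chr1:92850378-92850443 (plus) for Mir149, chr9:108568319-108568392 (plus) for Mir191, chr9:108568777-108568861 (plus) for Mir425 and chr11:65734733-65734832 (minus) for Mir744.
Mir139: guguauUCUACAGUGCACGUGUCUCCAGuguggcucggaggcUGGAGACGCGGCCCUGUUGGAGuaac
Mir149: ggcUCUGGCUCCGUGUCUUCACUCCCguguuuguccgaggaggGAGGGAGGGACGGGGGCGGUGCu
Mir191: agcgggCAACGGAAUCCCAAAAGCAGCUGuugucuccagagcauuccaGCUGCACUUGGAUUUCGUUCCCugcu
Mir425: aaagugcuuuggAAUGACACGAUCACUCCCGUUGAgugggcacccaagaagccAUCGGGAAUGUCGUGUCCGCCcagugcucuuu
Mir744: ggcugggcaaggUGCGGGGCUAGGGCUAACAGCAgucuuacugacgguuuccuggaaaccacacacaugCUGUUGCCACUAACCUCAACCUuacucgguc

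The hairpins were 66 to 100 bases long and held 54.1% to 68.2% G and C, highest in Mir149, against a median of 51.7% (quartiles 45.0% to 57.7%) over the 1005 mouse hairpins of the RefSeq table. The longest run that any of them shared with a hairpin at another locus was 15 bases, between Mir744 and Mir1191. For Mir139, Mir149, Mir191 and Mir425 it was 11, 12, 10 and 12 bases. No mature strand of Mir139, Mir149 or Mir744 had an exact copy in another annotated transcript, and those of Mir191 and Mir425 occurred only in transcripts over their own locus. This matters here because reads that map to several places enter no gene count, and their share of the sequenced reads was 80.7% (replicate 1) and 71.0% (replicate 2). No genome sequence was searched.

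The 5p strands, the ones by which these miRNAs are mostly known, are shown with the seed in capitals, followed by miR-489-3p (chr6:3721922-3721944, minus strand), which has the seed of miR-425-5p.
miR-139-5p: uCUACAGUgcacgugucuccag
miR-149-5p: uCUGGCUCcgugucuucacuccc
miR-191-5p: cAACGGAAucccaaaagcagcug
miR-425-5p: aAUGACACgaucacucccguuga
miR-744-5p: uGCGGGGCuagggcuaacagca
miR-489-3p: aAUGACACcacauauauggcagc

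The 10 mature strands of the 5 genes had 10 different seeds, so the genes form no seed family among themselves. For 8 of the 10, no other mature miRNA of the RefSeq table (1738 mature strands) shared the seed. The seed of miR-425-5p was shared with miR-489-3p, which is identical to it over its first 8 bases, but Mir489 had 0 counts in both libraries, which allows up to 3.47 counts per 1000000 gene counts (CPM) in replicate 1 and 1.38 CPM in replicate 2. The seed of miR-149-3p was shared with 4 entries, of which Mir1943 had 1 and 15 counts, Mir7016 had 0 and 4, and the miR-6967-5p genes Gm27775 and Gm27740 had 0 in both libraries. Of all these genes with a shared seed, Mir1943 had the highest mean level, at 4.02 CPM.

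The position called intronic holds in GENCODE M21, the annotation the files were counted on, for Mir139, Mir149 and Mir744. Mir139 (ENSMUSG00000065446.1) lies in an intron of Pde2a in 10 of its 12 transcripts, and also in an intron of the overlapping coding gene Gm45837. In the transcript Pde2a-201 the hairpin lies 5927 bp before the next exon. Mir149 (ENSMUSG00000065470.1) lies in an intron of Gpc1 in 1 of its 5 transcripts, the first intron, which is 21249 bp long, at 18280 bp from exon 1 and 2903 bp from the next exon. Mir744 (ENSMUSG00000076460.1) lies in an intron of Map2k4 in 5 of its 7 transcripts and, in the lowest-numbered of them, in intron 3, which is 15588 bp long, at 359 bp from the exon before it. None of these 3 hairpins overlapped an exon on its strand.

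Mir191 (ENSMUSG00000105497.1) and Mir425 (ENSMUSG00000065579.1) do not lie in Dalrd3 in GENCODE M21. There they end 1493 and 1024 bp before the start of Dalrd3 and lie in the lincRNA gene 4833445I07Rik, whose unspliced transcript covers both hairpins as exon. Its spliced transcript holds Mir191 in a 303 bp intron and stops before Mir425. RefSeq on the same assembly starts Dalrd3 further upstream, and both hairpins fall inside that gene span, 835 and 1293 bp from its start. The hairpins are 384 bp apart. Mir191 also faces the annotated miRNA gene Gm24083 on the minus strand.

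**Figure D1:**
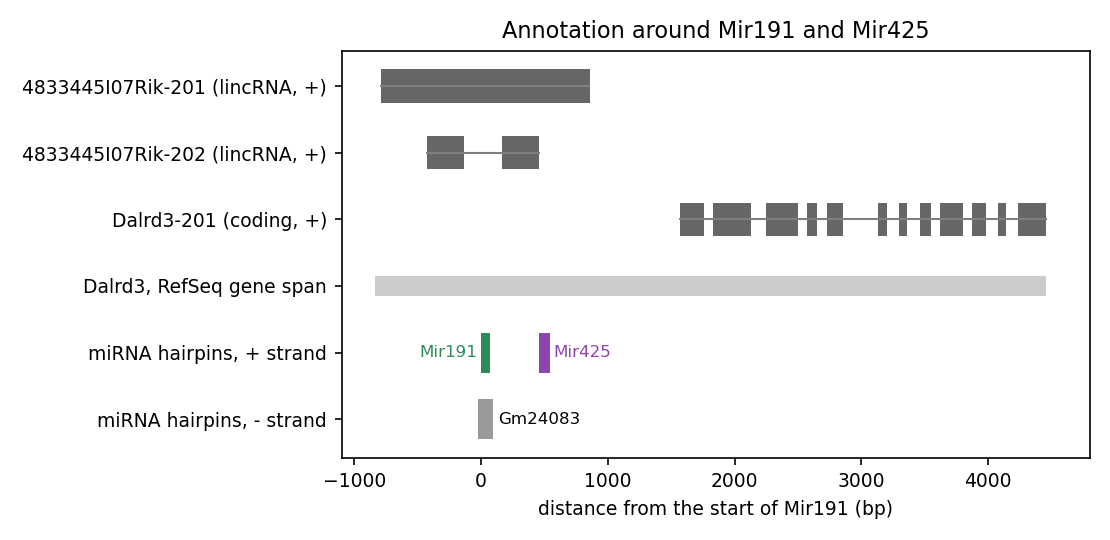
Annotation around Mir191 and Mir425, as distance in bp from the start of Mir191: boxes are exons of GENCODE M21 transcripts, thin lines their introns, the light bar the RefSeq span of Dalrd3, and coloured boxes the hairpins. Both hairpins lie under an exon of the lincRNA and inside the RefSeq span, and 1493 and 1024 bp before the GENCODE start of Dalrd3.

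The libraries held 865419 and 2177048 gene counts in replicates 1 and 2, and CPM is relative to these totals. The tissue label was compared with miRNAs of muscle: all 7 listed skeletal muscle genes had counts, but Mir206 held 34953 of the list's 35261 counts in replicate 1 and 224741 of 225328 in replicate 2. Of 6 neural genes, Mir9-2, Mir124a-1, Mir124a-2 and Mir124a-3 were at 0 and the list had 1 and 5 counts in all. Reads that fit several gene copies enter no gene count. For genes numbered as copies, such as Mir1a-1 and Mir1a-2, Mir133a-1 and Mir133a-2 or the Mir124a genes, low counts therefore need not mean low levels. The neural list is made of such copies, so its low counts are no check of the label. Several lists differed between the libraries, and their part in the results below was not tested. Summed CPM of several lists rests on a single gene, so a list's ratio of replicate 2 to replicate 1 (with exact counting intervals) is given with its members' directions. Skeletal muscle stood at 2.54 (2.51 to 2.57), with 4 of 7 genes higher in replicate 2 and 3 lower, and the summed CPM of the 6 genes other than Mir206 went from 356 to 270. Slow fibre was at 5.27 (4.48 to 6.24), with Mir208b and Mir499 both higher, and smooth muscle at 0.504 (0.499 to 0.509), with Mir143 and Mir145a both lower. Fibroblast was at 2.18 (1.99 to 2.40), led by Mir214 (488 and 2906 counts). The other 3 genes were lower by CPM but had few counts: Mir199a-1 had 3 and 0, Mir199a-2 had 13 and 13, and Mir199b had 44 and 91. Epithelium was at 0.790 (0.686 to 0.911), led by Mir203 (275 and 282 counts), and the other 6 genes were higher. Leukocyte was at 1.13 (1.08 to 1.18), with Mir155 and Mir150 higher and Mir142 and Mir223 lower. Mir150 was nearly level, at 1663 and 1746 CPM. Endothelium (Mir126a alone) was at 1.12 (1.11 to 1.13), the erythroid list at 1.37 (1.17 to 1.62) with both genes higher, and the liver miRNA Mir122 had 9 and 207 counts. In such bulk tissue, fewer cells of a type and less RNA per cell cannot be told apart.

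Mir139, Mir149, Mir191 and Mir744 each took between 0.561% and 1.58% of the gene counts of a library, while Mir425 was far lower. Mir139 had 9732 counts in replicate 1 and 34091 in replicate 2, or 11245 and 15659 CPM. Mir149 had 4858 and 34487 counts, or 5613 and 15841 CPM. Mir149 was thus the lowest of these 4 in replicate 1 and the highest in replicate 2.

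Mir191 had 8705 and 18193 counts, or 10059 and 8357 CPM. Mir744 had 7072 and 19612 counts, or 8172 and 9009 CPM. Mir425 had 301 and 1373 counts, or 348 and 631 CPM. Mir425 lay below each of the others in both libraries, and only Mir191 had a lower CPM in replicate 2 than in replicate 1.

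**Figure D2:**
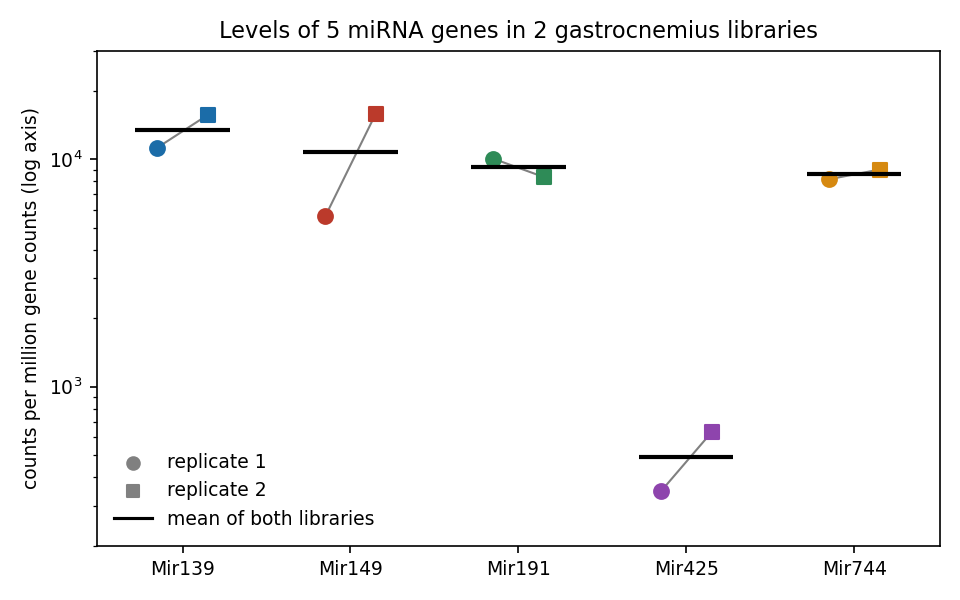
Levels of the 5 genes in CPM (log axis), with circles for replicate 1, squares for replicate 2 and a black line for the mean of both. Mir149 spans 5613 to 15841 CPM, Mir744 only 8172 to 9009 CPM, and Mir425 lies at 348 and 631 CPM.

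By mean CPM the order was Mir139 at 13452 ± 3121 CPM (SD, n = 2), Mir149 at 10727 ± 7232, Mir191 at 9208 ± 1203, Mir744 at 8590 ± 592 and Mir425 at 489 ± 200 CPM. Neighbours in this order had overlapping ranges over the libraries, except that Mir425 lay below all others. Mir139 lay above Mir191 and Mir744 in both libraries. Among all 2202 genes the mean placed them at ranks 17, 19, 22, 23 and 81.

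The rank of Mir149 went from 29 in replicate 1 to 15 in replicate 2. That of Mir139 went from 19 to 16, that of Mir191 from 21 to 24 and that of Mir744 from 24 to 22. Mir425 stood at 88 and 74. Just outside the set, Mir29a (14492 ± 423 CPM) stood directly above Mir139, Mir100 (12877 ± 3452 CPM) between Mir139 and Mir149, and Mir30e (8557 ± 937 CPM) directly below Mir744.

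As a share of gene counts, the 5 genes together held 3.54% in replicate 1 and 4.95% in replicate 2 (4.25% ± 0.994, SD, n = 2). Exact Clopper-Pearson intervals were narrow at this depth. For Mir149 the share was 0.561% (0.546 to 0.577) in replicate 1 and 1.58% (1.57 to 1.60) in replicate 2, and for Mir425 it was 0.0348% (0.0310 to 0.0389) and 0.0631% (0.0598 to 0.0665). These intervals reflect counting error alone: the reads carry no molecular identifiers and may repeat molecules.

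Between the libraries, Mir149 was the gene of the set that differed most. Its CPM was 2.82 times as high in replicate 2 (exact counting interval 2.74 to 2.91), with an adjusted p too small for the computation to hold, and it was the only member that passed both an adjusted p under 0.05 and a 2-fold ratio. The test was a two-sided exact binomial test, conditional on each gene's total, on the 305 genes whose counts averaged 10 or more, with Benjamini-Hochberg adjustment over all of them. It weighs the difference of these 2 libraries against counting error, not against the spread between animals. By the same rule 103 of the 305 genes were called (33.8%), of which replicate 2 was higher for 82 (26.9%) and replicate 1 for 21 (6.89%), so 1 called gene in a set of 5 is no more than the background.

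The other genes differed less than 2-fold, but each by more than counting error, as most genes did: 207 of 305 tested genes (67.9%) had an adjusted p under 0.05 with any ratio. Mir425 was 1.81 times as high in replicate 2 (1.60 to 2.06, adjusted p = 2.02e-22 by the exact test). The log2 ratio of Mir425 shrank from 0.86 to 0.58 with TMM and to 0.44 with DESeq2 scaling. Mir139 was 1.39 times as high in replicate 2 (1.36 to 1.42, adjusted p = 3.98e-192 by the exact test), a log2 ratio of 0.48 that shrank to 0.20 with TMM and to 0.06 with DESeq2 scaling. Mir744 stood at a ratio of 1.10 (1.07 to 1.13, adjusted p = 5.15e-12 by the exact test), and its direction turned with TMM and DESeq2 scaling. Mir191 was 1.20 times as high in replicate 1 (1.17 to 1.23, adjusted p = 5.18e-44 by the exact test). Its log2 ratio of -0.27 grew in size to -0.55 with TMM and to -0.69 with DESeq2 scaling. The direction turned where multimapping reads entered the totals.

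Set against all tested genes, the ratios were ordinary in size. The median log2 ratio of replicate 2 over replicate 1 was 0.43 over the 305 genes, with an SD of 1.25. On that log2 scale Mir149 stood 1.06 above the median, Mir425 0.42 above it and Mir139 0.04 above it, while Mir744 and Mir191 stood at -0.29 and -0.70 from it. Mir149 was higher than 248 of the 305 genes and Mir191 higher than 66.

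Genes at the level of Mir139, Mir149, Mir191 and Mir744 had a narrower spread of ratios. Over the 56 tested genes with a mean of at least 1000 CPM, these 4 included, the median log2 ratio was -0.06 (SD 0.81). Of the 56, 11 were called (19.6%). By the exact test, 51 of the 56 (91.1%) had an adjusted p under 0.05 with any ratio, against 67.9% of all tested genes. In that class 4 of 56 genes had a higher ratio than Mir149 and 7 of 56 a larger ratio in either direction, while 42 of 56 had a larger one than Mir744 and 34 of 56 a larger one than Mir191. Scaled by library totals, Mir744 was thus among the steadier of the abundant genes in these 2 libraries, and Mir149 among the less steady.

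**Figure D3:**
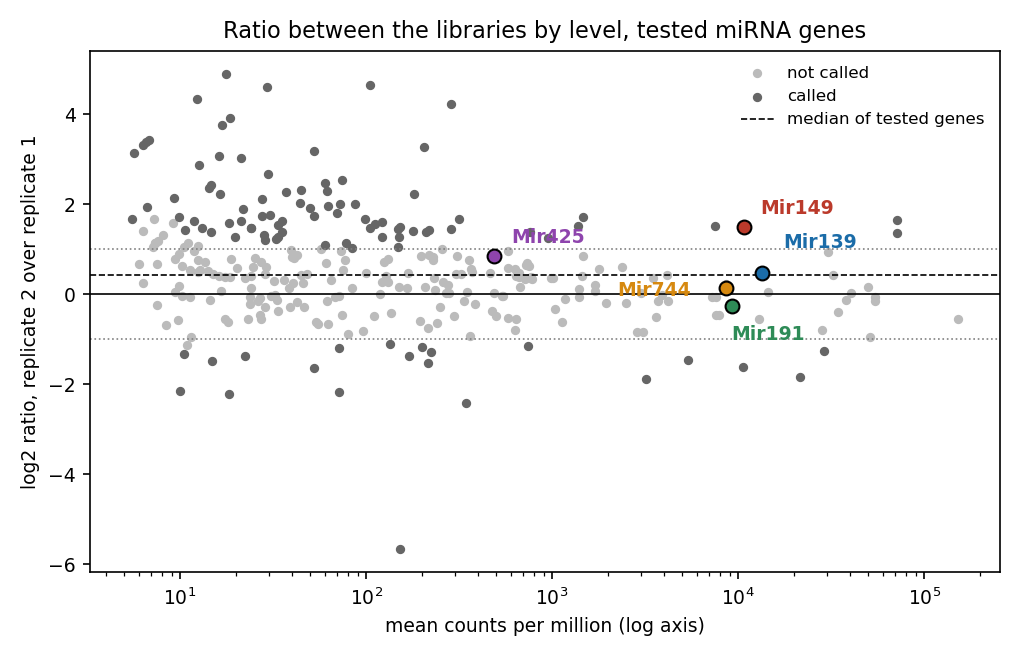
Log2 ratio of replicate 2 over replicate 1 against mean CPM (log axis) for the tested genes, dark where called, with dotted lines at 2-fold and a dashed line at the median of 0.43. Mir149 lies above the dotted line, and Mir139, Mir191, Mir425 and Mir744 lie between the dotted lines.

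Ratios between members inside a library need no scaling. They restate the order by CPM, which divides all genes of a library by the same total, and are no separate evidence for it. Mir139 had 2.00 times the counts of Mir149 in replicate 1 (exact interval 1.94 to 2.07) and 0.989 times in replicate 2 (0.974 to 1.00), where counting error does not separate them. Mir149 had 0.558 times the counts of Mir191 in replicate 1 (0.539 to 0.578) and 1.90 times in replicate 2 (1.86 to 1.93), the largest shift among the 10 ratios of members. The smallest shift was that of Mir139 to Mir744, at 1.38 (1.33 to 1.42) and 1.74 (1.71 to 1.77), or 1.26-fold. Mir191 to Mir744 stood at 1.23 (1.19 to 1.27) and 0.928 (0.909 to 0.947). The 10 ratios share genes and are not independent.

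Mir191 and Mir425, which lie 384 bp apart on the same strand, were counted at very unequal levels. Mir191 exceeded Mir425 by 28.9 to 1 in replicate 1 (exact interval 25.8 to 32.6) and by 13.3 to 1 in replicate 2 (12.5 to 14.0), a mean log2 ratio of 4.29 ± 0.80 (SD, n = 2). Mir425 thus made up 3.34% of the pair's counts in replicate 1 (2.98 to 3.73) and 7.02% in replicate 2 (6.66 to 7.38). The ratio was 2.18 times as high in replicate 1 (exact conditional interval 1.92 to 2.49), so the levels of the 2 genes lay closer together in replicate 2. By CPM, Mir191 was lower and Mir425 higher in replicate 2, except that Mir191 was also higher there where multimapping reads entered the totals.

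Over 87 pairs of tested neighbours on a strand within 10 kb of each other, the median pair differed 5.77-fold in level, and 16 pairs differed by more than Mir191 and Mir425, whose gap in level was thus wider than that of most pairs. The median shift of the ratio between the libraries was 1.86-fold, and 28 pairs shifted by more than this pair. With at least 100 counts for both genes in both libraries, 21 pairs were left, with medians of 5.28-fold in level and 1.87-fold in shift, and 5 and 6 of them exceeded Mir191 and Mir425. Pairs of a longer cluster share genes. Some pairs hold genes numbered as copies, such as Mir24-1 and Mirlet7a-2, whose reads may fit several places and go uncounted. Gaps and shifts of those pairs are therefore not a like background for Mir191 and Mir425. Pairs without such genes were not compared separately.

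**Figure D4:**
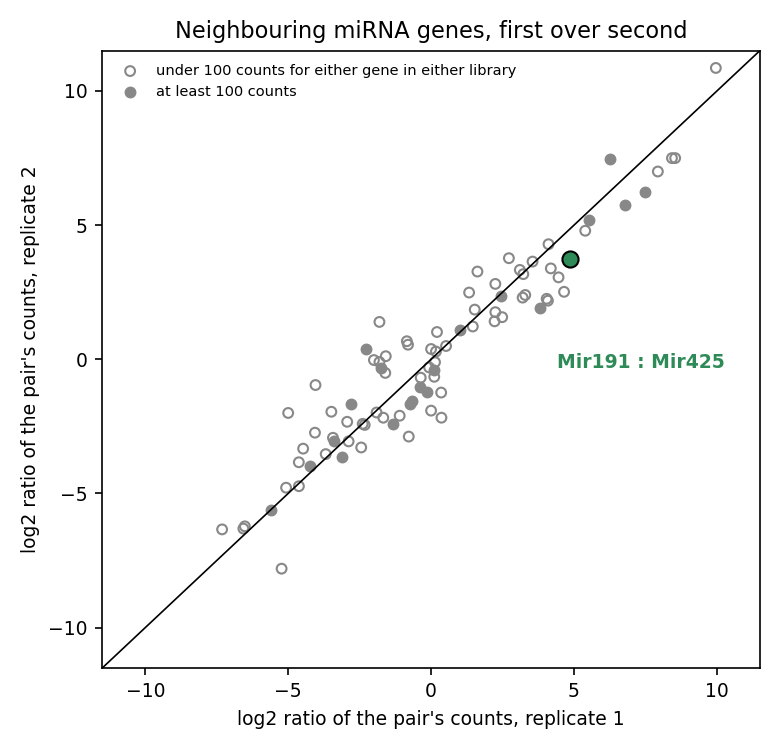
Log2 ratio of counts of the first to the second gene of each neighbouring pair, in order of position, in replicate 1 (x axis) and replicate 2 (y axis), with filled points for pairs with at least 100 counts for both genes in both libraries and a line where the libraries are equal. The pair of Mir191 and Mir425 lies below the line, with ratios of 28.9 and 13.3.

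The strand of the count column decides whether Mir191 is seen. The antisense column held 0 counts for all 5 genes in both libraries. In the unstranded column Mir139, Mir149, Mir425 and Mir744 kept their sense counts exactly, whereas Mir191 fell to 0, as did Gm24083 on the other strand (108568295 to 108568414). Gm24083 had 0 sense counts, and its antisense counts were 8705 and 18193, equal to the sense counts of Mir191. The reads over this locus were thus all on the strand of Mir191, and without strand they were assigned to neither gene.

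Among miRNA genes that lie only in introns of a coding gene on their own strand, Mir139, Mir149 and Mir744 ranked 6, 7 and 8 by mean CPM of 710. The 5 above them were Mir378a in Ppargc1b (152675 ± 40587 CPM), Mirlet7g in Wdr82 (54599 ± 1760 CPM), Mir23b in 2010111I01Rik (38061 ± 2394 CPM), Mir26b in Ctdsp1 (29004 ± 16700 CPM) and Mir10b at Hoxd3 and Hoxd4 (21490 ± 17049 CPM). Mir30e in Nfyc (8557 ± 937 CPM) and Mir151 in Ptk2 (7596 ± 1747 CPM) followed at ranks 9 and 10. Of these 10, 3 were called: Mir26b and Mir10b, with more CPM in replicate 1, and Mir149, with more in replicate 2.

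As a class, coding-intron genes were close to all genes. Of 710, 96 were tested (13.5%, against 305 of 2202 or 13.9%), with a median level of 128 CPM (quartiles 26.2 to 686) against 80.2 CPM (23.7 to 577) over all tested genes. Their median log2 ratio was 0.38 against 0.43, and 29 of 96 were called (30.2%, against 33.8%), 23 higher in replicate 2 and 6 higher in replicate 1. Genes over an exon, the class of Mir191 and Mir425 in GENCODE M21, had a median of 111 CPM (22.6 to 630) over 95 tested genes, and 30 of them were called (31.6%). Coding-intron genes held 43.9% of gene counts in replicate 1 and 34.6% in replicate 2, and exonic genes 31.2% and 46.5%. Single genes weigh heavily in these shares. From replicate 1 to replicate 2, the exonic Mir206 went from 40389 to 103232 CPM and Mir22 from 34676 to 108765 CPM. The coding-intron gene Mir378a went from 181375 to 123976 CPM. The filter acts on raw counts, which replicate 2 dominates, so genes higher there pass it more easily.

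**Figure D5:**
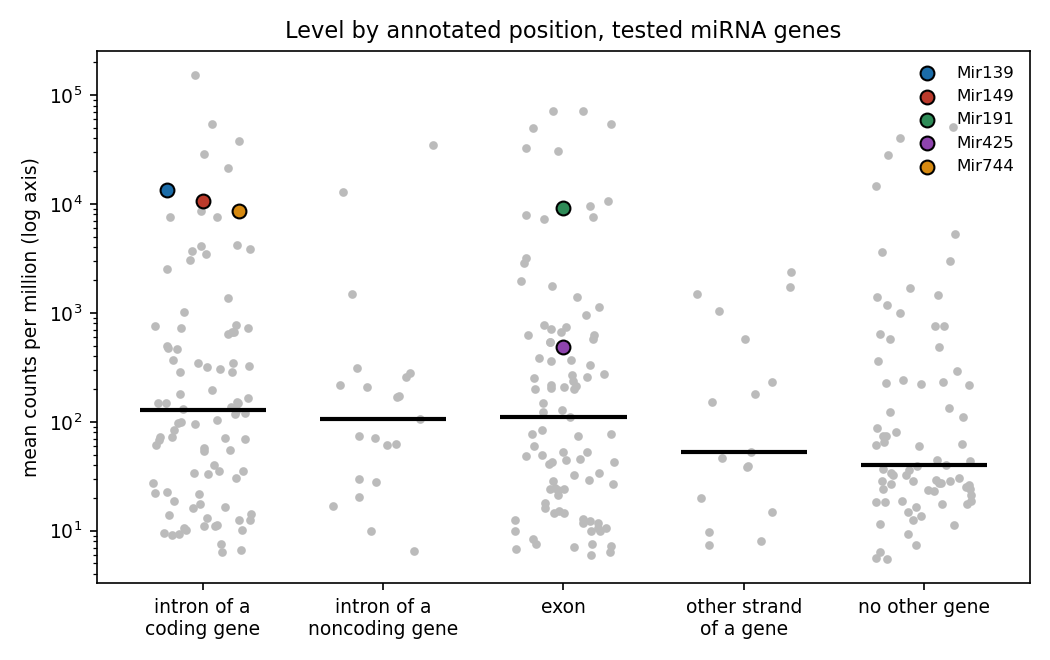
Mean CPM (log axis) of the tested miRNA genes by annotated position on their own strand, with black lines at class medians. Mir139, Mir149 and Mir744 lie far above the median of 128 CPM of coding-intron genes, Mir191 far above and Mir425 above the median of 111 CPM of exonic genes.

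The genes closest to each member in level over both libraries, by Euclidean distance of log2(CPM + 1), differed from member to member. Mir744 was nearest to Mir30e (7894 and 9219 CPM, distance 0.06) and then to Mirlet7f-2 (0.29). Mir191 was nearest to Mir30d (10478 and 8455 CPM, distance 0.06) and then to Mir744 (0.32). Mir139 was nearest to Mir29a (14193 and 14792 CPM, distance 0.35) and then to Mir100 (0.74). Mir425 was nearest to Mir532 (386 and 536 CPM, distance 0.28), which lies in an intron of Clcn5, and to Mir484 (392 and 768 CPM, distance 0.33). Mir149 lay further from its nearest gene than any other member did. Its nearest genes were Mir125a (3916 and 11166 CPM, distance 0.72) and Mir30e (0.92). With 2 libraries this distance says no more than that these levels were alike here.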

How the data were processed

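MicroRNA-seq of 2 gastrocnemius libraries gave read counts per miRNA gene, deposited by the authors without normalization. Per the deposited README files, counting used mm10 and GENCODE M21; for the aligner, counting tool and trimming, nothing is given in the sources used here. Each file holds 4 tallies, left out of library sizes and tests (unmapped reads were 5.10% and 8.17% of all reads in replicates 1 and 2, multimapping reads 80.7% and 71.0%, reads outside miRNA genes 1.67% and 2.73%, ambiguous sense reads 0), and 2202 genes in 3 columns without header. Their values mark these as unstranded, sense and antisense; results rest on the sense column. Gene counts were 12.6% and 18.1% of all reads. CPM is a count per 1000000 gene counts of its library.

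Genes averaging 10 or more counts entered an exact conditional binomial test (two-sided, Benjamini-Hochberg adjustment over all of them) and were called at an adjusted p under 0.05 and at least 2-fold. Intervals are exact at 95% (Clopper-Pearson or conditional), and 0 counts allow up to 3. The test was checked on simulated counts that varied by counting error alone, so the check does not cover further spread between libraries. Alternatives were TMM (edgeR 4.0.16), DESeq2 1.42.0 size factors, other totals, the unstranded column, other filters and each library left out. Python 3.11.15, NumPy 2.4.6, SciPy 1.17.1, pandas 2.3.3 and R 4.3.3 were used.

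The members and lists were chosen with earlier results of these data known. Named genes are the members, the 2 nearest genes to each by level, genes sharing a seed, genes in the same hosts or facing a member, the 10 highest coding-intron genes and marker lists. The class of at least 1000 CPM, the neighbour pairs and the genes next in rank were chosen after the data were seen. Mir142a was matched as Mir142.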

Additional observations from a re-analysis of the deposited data

How the results depend on the processing

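The call of Mir149 held under all 8 settings that changed a scaling, total, strand, filter or threshold. Its log2 ratio shrank towards the 2-fold threshold, to 1.21 with TMM and 1.08 with DESeq2 size factors. It rose to 2.09 with multimapping reads in the totals. The filter and fold-threshold settings left its counts and ratio unchanged, so they hardly tested the call. Of 67 recomputed values, 47 kept their direction and side of the threshold or moved by less than 1 SD. These include the values with 1 library left out, which could not move by 1 SD because the SD rests on the same 2 libraries. The log2 ratio of Mir744 turned to -0.14 with TMM and -0.28 with DESeq2 size factors. With multimapping reads in the totals, that of Mir191 turned to 0.33, Mir139 (1.07) and Mir425 (1.45) passed the 2-fold threshold, 163 genes and 3 members were called, and mean CPM became 2352 for Mir139, 1991 for Mir149, 1528 for Mir191, 87.6 for Mir425 and 1468 for Mir744, as larger totals must give. A mean of at least 100 counts left 50 called genes. Without a fold threshold 207 genes and 5 members were called. Unstranded counts gave 17427 CPM for Mir139, 11170 for Mir744 and 0 for Mir191, whose ratio to Mir425 then has no value. With the top gene out of the totals, Mir191 stood at 10913 and Mir744 at 10133 CPM. TMM called 98 genes (67.3% higher in replicate 2) and DESeq2 size factors 97 (59.8%), against 103 with library totals (79.6%). With multimapping reads in the totals 94.5% were higher in replicate 2.

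No paired analysis was possible because the series has 1 group. With 2 libraries of that group, levels rest on 2 values each, and multimapping reads, most of each library, are not assigned to genes.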
